A study of Mus musculus with 12 samples.

Results

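The data here are the levels of 10 genes that cells are known to induce when oxygen falls and that lie outside the pathway of glycolysis: Hif1a, Vegfa, Bnip3, Bnip3l, Car9, Egln1, Egln3, Adm, Ndrg1 and Ankrd37. They were chosen by name, with earlier results of these data known, and are 10 of the 54232 genes counted in bulk RNA from mouse eye organoids. Organoids were grown from embryonic stem cells that are heterozygous for a Rax-GFP knock-in, and all 12 libraries come from day 7 of culture and share this genotype. The 3 groups are control, LDHi, which received the lactate dehydrogenase inhibitor GNE-140 (20 µM, 3 days), and LDHi+lactate, which received GNE-140 and sodium L-lactate (25 mM). There are 4 libraries in a group, numbered 1 to 4, from 4 independent experiments by the study's methods. In the labels lactate was given 12 h ahead of the inhibitor, while the methods describe lactate added in its presence. The labels call the cell type eye organoid in replicates 1 and 2 and retina progenitors in replicates 3 and 4 of every group, and these are called the 2 sets below. RNA was bulk RNA of mixed cells, so that a lower level can mean fewer cells of a type or less RNA per cell, which cannot be told apart.

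The response to low oxygen runs through hypoxia-inducible factor (HIF), a pair of an oxygen-labile alpha subunit, such as the product of Hif1a, and a stable beta subunit, such as that of Arnt. Where oxygen is present, prolyl hydroxylases, among them the products of Egln1 and Egln3, mark the alpha subunit for destruction by the von Hippel-Lindau complex, and where it is scarce the alpha subunit accumulates and the pair binds DNA at short elements with the core ACGTG or GCGTG. Its targets include glycolytic enzymes, the angiogenic ligand Vegfa, the peptide hormone Adm, the mitophagy receptors Bnip3 and Bnip3l, the carbonic anhydrase Car9, and Egln1 and Egln3 themselves, which closes a feedback loop. Since HIF-1 alpha is set largely by protein stability, the RNA level of Hif1a is not a measure of HIF activity.

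This core was found ahead of annotated start sites of most of these genes. RefSeq promoter windows (GRCm38.p6, from 250 bases before the start site, 300 bases in all) were at hand for 8 of the 10 genes, in 9 windows because Vegfa has 2. Bnip3l and Ndrg1 had no entry. ACGTG or GCGTG, on either strand, stood in 8 of the 9 windows (88.9%), against 14380 of 32851 windows of all genes (43.8%). The 2 shares were not matched for base composition, although both cores hold the bases CG. The 250 bases ahead of the start site were 50.8% (Egln3) to 86.0% (Egln1) G or C in the 9 windows. ACGTG alone stood in 19.6% and GCGTG in 32.4% of all windows. The 6-base palindrome CACGTG, which holds ACGTG on both strands and is also an E-box, was counted within them and stood in 7.15%. The window without a match was 1 of the 2 of Vegfa (chr17:46032378-46032627), and it lies just ahead of the annotated 5′ end of the gene. The other Vegfa window (chr17:46025164-46025413) held 2 matches and lies inside the gene (chr17:46016993-46032369, minus strand). The 4 windows printed here belong to genes that differed between the 2 sets of libraries. They give the 250 bases before the start site, 5′ to 3′ on the strand of the gene, with each ACGTG or GCGTG, or its reverse complement, in capitals: Bnip3 from chr7:138909507-138909756 (minus strand), Ankrd37 from chr8:45999851-46000100 (minus strand), Egln3 from chr12:54203875-54204124 (minus strand) and Adm from chr7:110627407-110627656 (plus strand).
Bnip3: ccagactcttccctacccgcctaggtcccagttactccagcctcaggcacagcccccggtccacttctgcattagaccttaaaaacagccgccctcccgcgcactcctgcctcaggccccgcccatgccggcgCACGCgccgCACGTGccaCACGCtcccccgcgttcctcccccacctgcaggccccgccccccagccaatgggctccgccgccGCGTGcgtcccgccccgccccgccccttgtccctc
Ankrd37: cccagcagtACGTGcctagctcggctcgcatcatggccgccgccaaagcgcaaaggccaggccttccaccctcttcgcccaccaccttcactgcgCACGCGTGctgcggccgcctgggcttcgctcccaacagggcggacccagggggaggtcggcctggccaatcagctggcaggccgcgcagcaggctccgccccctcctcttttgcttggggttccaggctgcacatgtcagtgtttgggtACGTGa
Egln3: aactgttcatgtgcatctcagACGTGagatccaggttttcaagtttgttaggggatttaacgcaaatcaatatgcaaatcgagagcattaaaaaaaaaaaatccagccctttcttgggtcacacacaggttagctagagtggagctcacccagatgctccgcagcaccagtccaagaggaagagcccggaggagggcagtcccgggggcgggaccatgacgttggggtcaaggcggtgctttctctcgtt
Adm: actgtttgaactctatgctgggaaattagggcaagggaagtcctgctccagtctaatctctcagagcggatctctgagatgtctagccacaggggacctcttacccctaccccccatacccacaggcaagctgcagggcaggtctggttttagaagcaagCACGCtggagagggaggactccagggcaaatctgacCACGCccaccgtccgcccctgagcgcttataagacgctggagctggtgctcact
Bnip3 holds 5 matches, of which 2 share 1 CACGTG (at -108 and -107 from the start site). Ankrd37 holds 4, the nearest at -6. Egln3 holds 1, at -229, and Adm 2, at -90 and -54. These are matches of letters and no measure of binding.

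The authors' raw counts sum to 22174002 to 48271386 per library (37284585 to 48271386 in replicates 1 and 2 and 22174002 to 29919036 in replicates 3 and 4). Levels are given as CPM, the share of a library's counts on the usual per-million scale after TMM scaling of the library sizes. EdgeR's quasi-likelihood fit took in 17721 genes and all 12 libraries with treatment as the only term, and a gene was called at a Benjamini-Hochberg adjusted p under 0.05. All 10 genes passed the filter on low counts. The replicate numbers pair the libraries, as same-numbered libraries of different groups deviated together, so a second fit that blocks on the number is given where it changes a result. The RNA held the genes of the labelled tissue: the 8 markers of the eye field and optic vesicle (such as Rax, Six3 and Six6) were all tested, with a summed level of 599 to 1514 CPM per library.

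The 10 genes spanned a wide range of levels per length, which is the scale on which genes can be compared with each other. Mean RPKM (CPM divided by the exon length in kilobases) over the 12 libraries were 42.8 ± 7.14 (SD, n = 12) for Egln1, 35.9 ± 3.82 for Bnip3l, 31.6 ± 2.63 for Hif1a and 25.9 ± 3.198 for Vegfa. These 4 stood above Bnip3 (11.4 ± 2.67) and Egln3 (10.8 ± 4.66) in every library. Ndrg1 (6.66 ± 1.86), Ankrd37 (3.35 ± 1.58), Adm (1.33 ± 1.09) and Car9 (0.212 ± 0.118) followed. The ranges of neighbours in this order, taken over the 12 libraries, overlapped apart from Vegfa and Bnip3. Within single libraries Hif1a exceeded Vegfa, Ndrg1 exceeded Ankrd37 and Ankrd37 exceeded Adm in 12 of 12. Bnip3 exceeded Egln3 in 8 of 12 libraries, and the remaining neighbours kept their order in 10 or 11. Part of this order depended on the length used. With the longest transcript as the length, Bnip3l stood above Egln1 in control (means of 46.7 and 43.6). In LDHi Ndrg1 then stood above Egln3 (12.9 and 10.5). Hif1a varied least, 1.30-fold between its lowest and highest library. Adm varied most, 23.5-fold, and Ankrd37 3.46-fold and Egln3 3.60-fold. Car9, a cell-surface carbonic anhydrase often used as a marker of hypoxic tissue, rested on 5 to 38 counts per library.

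**Figure D1:**
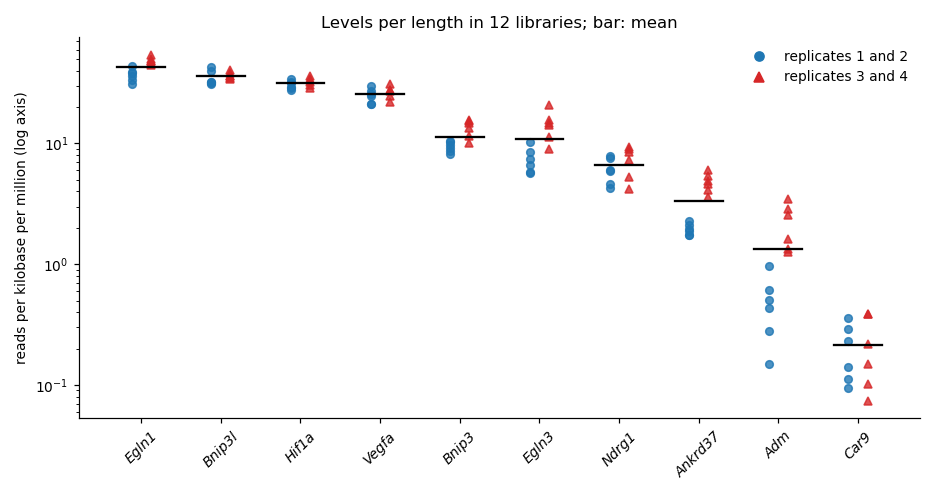
RPKM of the 10 genes on a log axis, with a circle for each library of replicates 1 and 2, a triangle for each of replicates 3 and 4 and a bar for the mean of 12. The 6 triangles of Ankrd37 and of Adm lie above all 6 of their circles, and Car9 lies lowest with a mean of 0.212.

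With LDH inhibition, 1 of the 10 genes was called. Ndrg1, a cytoplasmic protein induced by hypoxia, iron loss and other stresses and by differentiation, rose 1.73-fold (95% interval 1.37 to 2.18). The other 9 were not called: Hif1a, Vegfa, Bnip3l, Car9 and Egln1 had log2 fold changes below 0, and Bnip3, Egln3, Adm and Ankrd37 above 0. Among all 17721 genes 161 were called higher (0.909%) and 386 lower (2.18%).

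Ndrg1 lies on chr15:66929318-66969640 (minus strand, GRCm38). It had 28.2, 30.2, 27.7 and 34.8 CPM in the 4 control libraries, in the order of their numbers, and 39.1, 51.9, 61.5 and 56.6 CPM in LDHi. Every LDHi library lay above every control library. The means were 30.3 ± 3.24 and 52.3 ± 9.58 CPM (SD, n = 4 each), and the log2 fold change was 0.79 (SE 0.16, adjusted p = 0.0215). Within replicate numbers the log2 difference was 0.47, 0.78, 1.15 and 0.70, higher in 4 of 4. Groups that do not overlap, in the direction of higher in LDHi, were found for 4.26% of all genes. The lack of overlap by itself fixes the exact two-sided permutation test of log2 CPM, which ignores the pairing, at p = 0.0286 for Ndrg1. This is the smallest that 4 against 4 libraries allow. The call was lost (adjusted p of 0.061 to 0.0729) on leaving out any 1 of control replicates 1 and 3 and LDHi replicates 2, 3 and 4, whereas with the replicate block (0.77, SE 0.10, adjusted p = 0.0010, where 9.85% of all genes were higher and 10.1% lower, and Ndrg1 remained the 1 of the 10 called) it held whichever replicate number was left out (adjusted p of 0.0048 to 0.0076). Within replicates 1 and 2 the log2 fold change was 0.64 (SE 0.18, adjusted p = 0.302) and within replicates 3 and 4 it was 0.90 (SE 0.17, adjusted p = 0.0803).

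Markers of several cell types moved in the same comparison, and their part in the Ndrg1 result was not tested. Of all genes, 0.909% were higher and 2.18% lower by edgeR, and 9.85% and 10.1% with the replicate block. DESeq2 without the block called 2.51% and 4.53%, and 7.23% and 9.22% had an unadjusted p under 0.05 in edgeR. Of the 8 eye field and optic vesicle markers, 4 were lower in LDHi (8 with the replicate block), and their summed level was 849 to 1514 CPM in control, 599 to 667 in LDHi and 764 to 1080 in LDHi+lactate libraries. Of the 6 markers of naive and primed pluripotency, 2 were higher (5 with the block), with sums of 156 to 354, 359 to 632 and 293 to 733 CPM. Of 5 markers of mesenchyme and neural crest, 3 were lower (4 with the block), with sums of 37.3 to 252, 15.0 to 30.7 and 15.6 to 41.0 CPM. Of 7 endothelial markers tested, 1 was higher and 1 lower (3 and 1 with the block), with sums of 98.8 to 133, 146 to 197 and 136 to 178 CPM. Of 5 mesoderm and endoderm markers 0 were called by edgeR without the block (2 higher below an unadjusted p of 0.05), 3 were higher with it and 1 was higher by DESeq2, with sums of 43.8 to 135, 79.1 to 167 and 71.8 to 141 CPM. Of 4 neuronal markers 0 were called in either edgeR fit or by DESeq2, and 0 had an unadjusted p under 0.05. Of the 4 blood markers only Gata1 passed the filter, with a mean of 1.64 CPM, and Ptprc was at 0 in 10 of the 12 libraries.

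The oxygen sensors and their substrate were not called. Hif1a (chr12:73901375-73947530) had 200.1, 174, 190 and 213 CPM in control, 192, 168, 169 and 180 in LDHi and 186, 164, 199 and 202 in LDHi+lactate libraries. The 3 groups overlap, although LDHi was the lower of the pair in 4 of 4 replicates, as for 17.9% of all genes. The log2 fold change of LDHi against control was -0.13, with a 95% interval of -0.33 to 0.064. With the replicate block it was again -0.13, with an interval of -0.25 to -0.0066 that leaves out 0. Hif1a was not called there either (unadjusted p = 0.0406, adjusted p = 0.131). Egln1 (chr8:124908587-124949324), which encodes PHD2, the main HIF prolyl hydroxylase of most cells, had 158, 130, 167 and 172 CPM in control, 140, 120, 161 and 179 in LDHi and 138, 113, 173 and 196 in LDHi+lactate. In each group both libraries of replicates 3 and 4 stood above both of replicates 1 and 2, and the treatment effect was -0.065 (interval -0.44 to 0.31). With the block the effect on Egln1 was -0.075 (interval -0.22 to 0.067). Egln3 (chr12:54178981-54203860), which encodes PHD3 and is the most strongly hypoxia-induced of the family in many cells, had 22.8, 19.7, 23.9 and 30.0 CPM in control and 15.3, 15.3, 41.8 and 39.4 in LDHi. It was lower with the inhibitor in replicates 1 and 2 and higher in replicates 3 and 4, and the log2 fold change over all libraries was 0.21 (interval -0.63 to 1.05). With the block the log2 fold change of Egln3 was 0.042 (interval -0.46 to 0.54).

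The secreted factors were not called. Vegfa (chr17:46016993-46032369), the main growth factor for blood vessels, had 129, 110.6, 94.7 and 132 CPM in control, 91.4, 90.5, 106 and 119 in LDHi and 106, 116, 117 and 118 in LDHi+lactate. The groups overlap, and the log2 fold change of LDHi against control was -0.20 (interval -0.46 to 0.057). Adm (chr7:110627661-110629820), the precursor of the vasodilator peptide adrenomedullin, had 0.45, 0.24, 2.04 and 2.63 CPM in control and 0.70, 0.99, 5.62 and 4.11 in LDHi. It was higher with LDHi in 4 of 4 replicates, by log2 differences of 0.57 to 1.82, a pattern that 18.5% of all genes showed. The log2 fold change was 1.11 (SE 0.83, adjusted p = 0.591), and with the replicate block 1.125 (SE 0.37, adjusted p = 0.0584). DESeq2 with the block, which called 10.9% of all genes higher and 11.4% lower, gave an adjusted p of 0.0178. Counts of Adm ranged from 11 to 136 per library.

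Bnip3 and Bnip3l encode outer mitochondrial membrane proteins that recruit the autophagy machinery. Bnip3 (chr7:138890836-138909519) had 23.9, 21.8, 25.9 and 22.6 CPM in control, 19.5, 20.7, 33.5 and 34.6 in LDHi and 18.4, 23.2, 30.6 and 35.1 in LDHi+lactate. The control libraries lie close together, and in both treated groups replicates 3 and 4 stood above replicates 1 and 2. Bnip3l (chr14:66985239-67008877) had 155, 165, 155 and 133 CPM in control, 126, 122, 133 and 140.1 in LDHi and 125, 121, 149 and 139.8 in LDHi+lactate. The groups overlap by replicate 4, and the log2 fold change of LDHi against control was -0.23 (SE 0.09, unadjusted p = 0.0306, adjusted p = 0.234). With the block the adjusted p was 0.0742, and DESeq2 with the block gave 0.049.

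Car9 (chr4:43506966-43513729) had 0.53, 0.83, 0.88 and 0.23 CPM in control, 0.22, 0.26, 0.51 and 0.35 in LDHi and 0.33, 0.67, 0.89 and 0.17 in LDHi+lactate, and no difference was detectable at this depth (log2 fold change -0.94, interval -2.13 to 0.24). An antisense gene across it, Gm12454, held 72 counts against 204 for Car9 over the 12 libraries, and without the strand setting of the counting the sources of these reads cannot be separated. Ankrd37 (chr8:45996902-46005707), an ankyrin repeat protein that HIF-1 induces, had 3.26, 3.00, 5.49 and 7.16 CPM in control, 2.91, 2.67, 7.50 and 8.22 in LDHi and 2.70, 3.51, 6.28 and 9.23 in LDHi+lactate. Replicates 3 and 4 exceeded replicates 1 and 2 in every group. Ankrd37 (1949 counts) shares exonic bases with Ufsp2 on the other strand (14332 counts), so its level is uncertain.

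**Figure D2:**
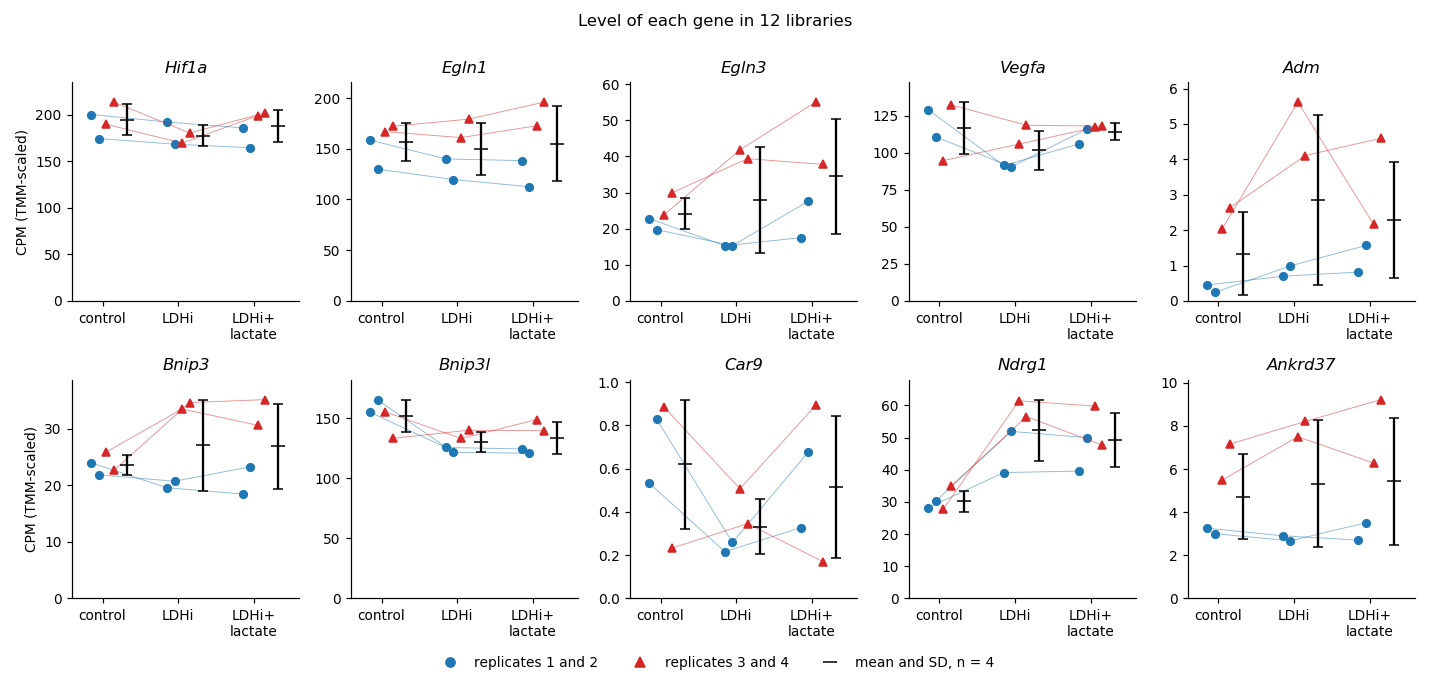
CPM of each gene in the 12 libraries by group, with circles for replicates 1 and 2, triangles for replicates 3 and 4, thin lines joining the libraries of 1 replicate number, and black marks for the mean and SD of 4. Ndrg1 is higher in all 4 LDHi libraries (39.1 to 61.5 CPM) than in all 4 control libraries (27.7 to 34.8 CPM), and Ankrd37, Adm and Egln1 separate by set.

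Adding lactate to the inhibitor gave no call among the 10 genes. For LDHi+lactate against LDHi, edgeR called 0 of the 10 genes and 0 of 17721 in all (0%), with 603 genes under an unadjusted p of 0.05, none of the 10 among them. DESeq2 called 54 genes higher (0.295%) and 2 lower (0.0109%), again none of the 10. Blocking on the replicate gave 101 higher genes (0.57%) and 12 lower (0.0677%), with none of the 10. Ndrg1 had 39.6, 49.996, 59.8 and 47.7 CPM in LDHi+lactate, within the range of LDHi, and its log2 fold change was -0.085 (interval -0.42 to 0.25). On the linear scale this interval runs from 0.748 to 1.19 times the LDHi level. Egln3 had 17.5, 27.5, 55.0 and 37.8 CPM in LDHi+lactate, with a log2 fold change of 0.31 (interval -0.53 to 1.142). Adm had 0.82, 1.57, 2.16 and 4.597 CPM, with -0.31 (interval -2.07 to 1.46). The block narrowed these intervals, to -0.15 to 0.84 for Egln3 (log2 fold change 0.34) and -0.89 to 0.74 for Adm (-0.072).

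Against control, Ndrg1 was again the gene that stood apart, in a comparison that shares its control libraries with the first. No LDHi+lactate library overlapped the control libraries (which by itself fixes the exact permutation p at 0.0286, and 2.12% of all genes were likewise separated and higher), and Ndrg1 was higher in 4 of 4 replicates (18.6% of all genes). The log2 fold change was 0.70 (SE 0.15, adjusted p = 0.263) without and 0.69 (SE 0.10, adjusted p = 0.0090) with the replicate block. EdgeR without the block called 0 of 17721 genes (0%), with 1653 at an unadjusted p under 0.05, while with the block 740 were higher (4.18%) and 686 lower (3.87%). DESeq2 without the block called 114 higher (0.622%) and 120 lower (0.655%), and gave Ndrg1 an adjusted p of 0.0161. The other 9 genes were not called in either edgeR fit. With the block Adm stood next, at 1.05 (SE 0.38, adjusted p = 0.11), and DESeq2 with the block, which called 7.37% of all genes higher and 7.89% lower, called Adm too (1.07, SE 0.38, adjusted p = 0.0375).

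**Figure D3:**
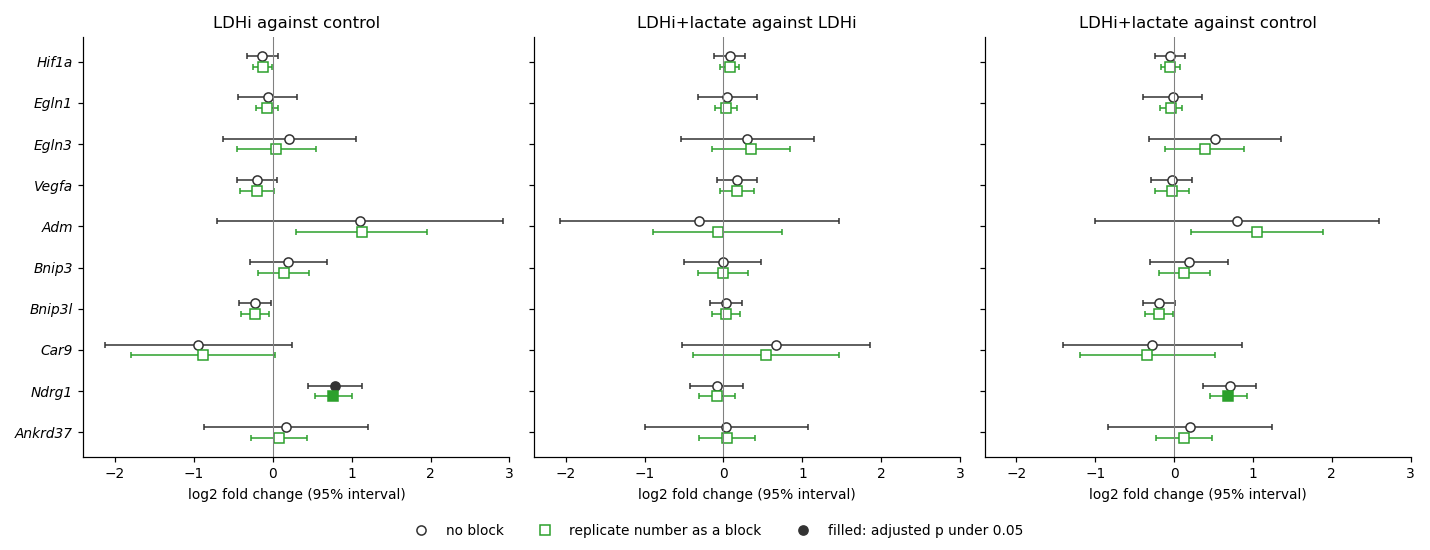
Log2 fold changes with 95% intervals for 3 comparisons, with circles for the fit without a block, squares for the fit blocked on replicate number and filled marks for an adjusted p under 0.05. Ndrg1 is filled in both fits for LDHi against control (0.79 and 0.77) and with the block for LDHi+lactate against control (0.69), and no mark is filled for LDHi+lactate against LDHi.

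In a fit with treatment and set as terms, the 2 sets of libraries differed in several of these genes. Of the 10 genes, 5 were called higher in replicates 3 and 4 (retina progenitors by label) than in replicates 1 and 2 (eye organoid by label), 0 were called lower, and all 10 had a difference above 0. Among all genes tested 13.7% were called higher and 14.3% lower. The 5 were Adm, Ankrd37, Egln3, Bnip3 and Egln1. The labelled cell type and the sequencing depth both follow the sets and cannot be told apart. Each set rests on 2 replicate numbers whose libraries deviate together, so p-values that treat its 6 libraries as independent are too small as a test between sets.

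Adm had 0.24 to 1.57 CPM (median 0.756) in the 6 libraries of replicates 1 and 2 and 2.04 to 5.62 (median 3.37) in those of replicates 3 and 4. The ranges do not touch, and its log2 difference of level was 2.24 (SE 0.31, adjusted p = 0.0005). Ankrd37 had 2.67 to 3.51 CPM (median 2.96) and 5.49 to 9.23 (median 7.33), again without overlap, with a difference of 1.28 (SE 0.15, adjusted p = 0.0002). Egln1, with 113 to 158 (median 134) and 161 to 196 CPM (median 172), did not overlap either, at 0.39 (SE 0.08, adjusted p = 0.0054). Libraries of the sets were separated and higher in replicates 3 and 4 for 5.62% of all genes. Egln3 had 15.3 to 27.5 (median 18.6) and 23.9 to 55.0 CPM (median 38.6), with an overlap between control replicate 3 and LDHi+lactate replicate 2, and a difference of 0.93 (SE 0.18, adjusted p = 0.0038). Bnip3 had 18.4 to 23.9 (median 21.3) and 22.6 to 35.1 CPM (median 32.0), with 0.50 (SE 0.12, adjusted p = 0.0095). Ndrg1 differed by 0.25 (SE 0.10, adjusted p = 0.0985), and Hif1a, Vegfa, Bnip3l and Car9 by 0.076 to 0.17, with adjusted p of 0.349 to 0.809.

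The same set difference was counted for related genes in the same 12 libraries, a count chosen after seeing the data. Of all genes 13.7% were called higher in replicates 3 and 4 and 14.3% lower. Of 38 other hypoxia-inducible genes outside glycolysis, 21 were higher in replicates 3 and 4 and 2 lower, with a median log2 difference of 0.37 against -0.013 over all genes. Stc1, which encodes a stanniocalcin, had 1.92 to 3.50 CPM in replicates 1 and 2 and 3.88 to 11.2 in replicates 3 and 4 (log2 difference 1.74, SE 0.27, adjusted p = 0.0010), and Rora, a nuclear receptor, was higher by 1.05 (SE 0.18, adjusted p = 0.0017). Stc2 went the other way, at -0.81 (SE 0.14, adjusted p = 0.0020). Of 19 HIF target genes of glycolysis and of glucose or lactate transport, 10 were higher and 0 lower, with a median of 0.41. Among them were Hk2, a hexokinase (0.76, SE 0.09, adjusted p = 0.0001), Pfkfb3, a regulator of phosphofructokinase (0.64, SE 0.08, adjusted p = 0.0002), Slc16a3, the lactate exporter MCT4 (0.82, SE 0.13, adjusted p = 0.0011), and Pfkl, a phosphofructokinase (0.43, SE 0.07, adjusted p = 0.0013). The machinery itself was divided: of 18 HIF subunits and regulators 4 were higher, among them Arnt (0.39, SE 0.05, adjusted p = 0.0003) and the coactivator Crebbp (0.76, SE 0.08, adjusted p = 8.2e-05), and 6 lower, among them Egln2 (-0.32, SE 0.04, adjusted p = 0.0003) and Rbx1, a ubiquitin ligase subunit (-0.44, SE 0.04, adjusted p = 6.2e-05), with a median of 0.051. Of 19 other genes of mitophagy 2 were higher and 4 lower (median -0.13). The family nearest to Adm went the other way: of 6 other adrenomedullin and CGRP ligands and receptors 0 were higher and 3 lower, and all 6 had a difference below 0 (median -0.44). Adm2, a related peptide hormone, had 4.31 to 7.18 CPM in replicates 1 and 2 and 0.541 to 1.44 in replicates 3 and 4 (-2.53, SE 0.27, adjusted p = 9.5e-05), and Calca, which encodes calcitonin and CGRP, differed by -1.42 (SE 0.30, adjusted p = 0.0058). Of 9 other VEGF genes, and of 12 other carbonic anhydrases and acid-base carriers, 1 was higher and 1 lower each (medians 0.17 and 0.041), and of 3 other NDRG genes 1 was higher (median 0.49). Marker sums overlapped between the sets, for example 617 to 1514 and 599 to 1407 CPM for the eye field and optic vesicle and 91.3 to 167 and 43.8 to 118 CPM for mesoderm and endoderm. Of these 5 mesoderm and endoderm markers 2 were lower in replicates 3 and 4, as were 1 of 6 pluripotency and 1 of 7 endothelial markers, and of the 8 eye markers 1 was higher and 1 lower. Their part in the set difference was not tested.

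**Figure D4:**
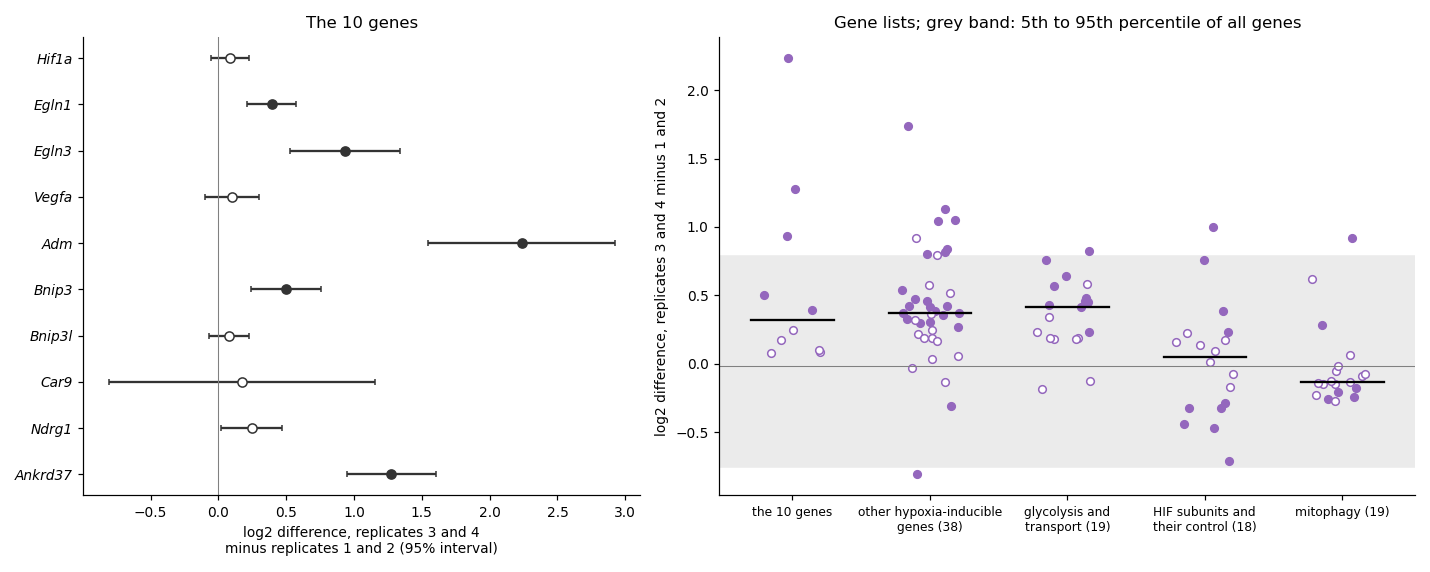
Left, the log2 difference in level between replicates 3 and 4 and replicates 1 and 2 with its 95% interval for each of the 10 genes, and right, the same difference for every tested gene of 5 lists, with bars for list medians, filled marks for an adjusted p under 0.05 and a grey band from the 5th to the 95th percentile of all genes (-0.75 to 0.79). Medians of the 10 genes, of the other hypoxia-inducible genes and of the glycolysis list lie at 0.32, 0.37 and 0.41, and those of the HIF machinery and mitophagy lists at 0.051 and -0.13.

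The response to the inhibitor in the 2 sets pointed in opposite directions for some genes, but the difference was not called. For Egln3 the log2 difference between LDHi and control within replicate numbers was -0.58 and -0.36 in replicates 1 and 2 and 0.81 and 0.39 in replicates 3 and 4. For Bnip3 it was -0.29, -0.077, 0.37 and 0.61. For Ankrd37 it was -0.16, -0.17, 0.45 and 0.20. This order of signs was met in 6.6% of all genes. An interaction term put the difference of effects at 1.07 for Egln3 (SE 0.34, unadjusted p = 0.0115), 0.67 for Bnip3 (SE 0.21, unadjusted p = 0.0106) and 0.48 for Ankrd37 (SE 0.37, unadjusted p = 0.23), all with an adjusted p of 0.89. No gene of the 17721 was called for it by edgeR (0%), with 694 at an unadjusted p under 0.05. With the replicate block 726 genes were called (4.1%), and Bnip3 and Egln3 had adjusted p of 0.0818 and 0.0936. With no filter on low counts Egln3 had an adjusted p of 0.0199.

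**Figure D5:**
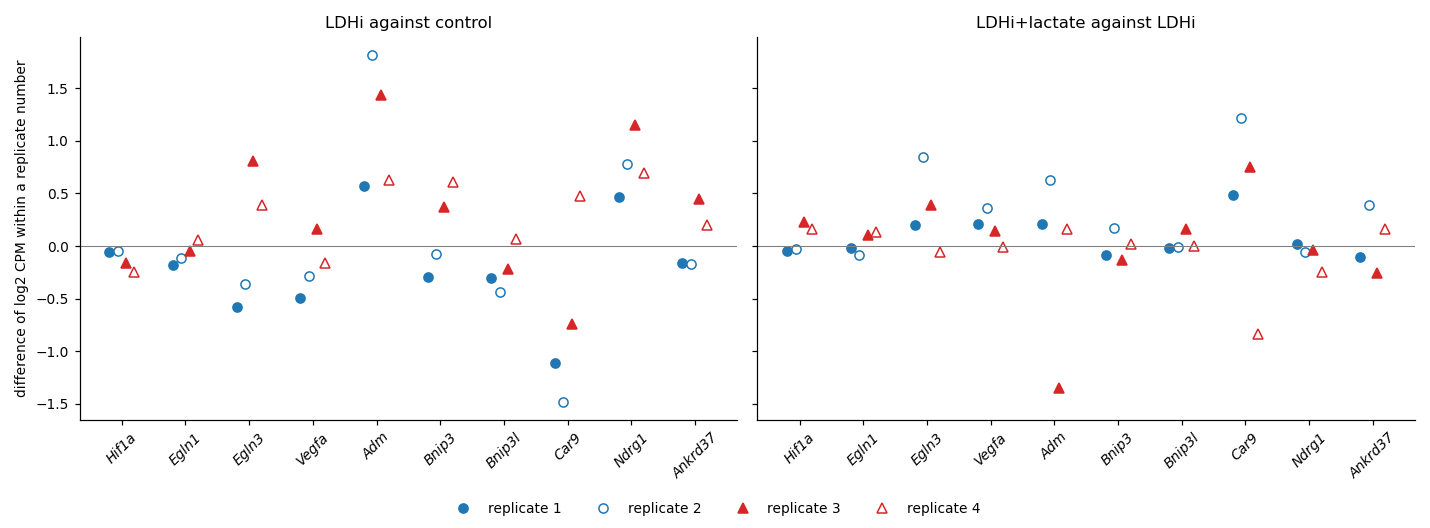
Difference of log2 CPM between groups within each replicate number, with circles for replicates 1 and 2 and triangles for replicates 3 and 4. For LDHi against control the circles of Egln3, Bnip3 and Ankrd37 lie below 0 and their triangles above it, whereas all 4 marks of Ndrg1 lie above 0 (0.47 to 1.15).

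Other genes of the pathway, grouped in lists with the 10 left out, were for the most part not called for LDHi against control. For comparison, edgeR called 0.909% of all genes higher and 2.18% lower, and DESeq2 2.51% and 4.53%. An unadjusted p under 0.05 in edgeR was met by 7.23% of all genes as higher and 9.22% as lower. Of 18 HIF subunits and regulators 0 were called (median log2 fold change 0.061, against 0.0086 over all genes) by edgeR and 0 by DESeq2, with 1 gene on each side at an unadjusted p under 0.05 in edgeR. With the replicate block 3 were higher and 2 lower, against 9.85% and 10.1% of all genes. They included Epas1, which encodes HIF-2 alpha, at 78.5 CPM in control and 108 in LDHi (0.52, SE 0.10, adjusted p = 0.0047 with the block), and Hif3a, at 18.1 and 10.7 CPM (-0.69, SE 0.14, adjusted p = 0.0082). Of 38 other hypoxia-inducible genes 0 were called by edgeR (median 0.017), with 2 higher and 4 lower below an unadjusted p of 0.05, while DESeq2 called 2 lower. With the block 3 were higher, among them the histone demethylase Kdm3a, at 159 and 239 CPM (0.59, SE 0.06, adjusted p = 0.0003) and the transferrin receptor Tfrc, at 422 and 577 CPM (0.43, SE 0.08, adjusted p = 0.0051), and 4 lower, among them Cox4i2, at 4.49 and 1.84 CPM (-1.29, SE 0.22, adjusted p = 0.0030). Of the 19 genes of glycolysis and transport, 1 was lower (median 0.16), the neuronal enolase Eno2, at 23.6 and 9.76 CPM (-1.27, SE 0.29, adjusted p = 0.0372). None was higher in that fit (2 below an unadjusted p of 0.05), but 1 was by DESeq2 and 2 were with the block, Pfkfb3 at 52.9 and 86.6 CPM (0.66, SE 0.09, adjusted p = 0.0011) and Pfkp, a phosphofructokinase, at 62.2 and 108 CPM (0.78, SE 0.17, adjusted p = 0.0094).

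Relatives of single members were called where the members were not, although the difference between them was not tested. Beside the counts below stand the shares of all genes, 0.909% higher and 2.18% lower by edgeR and 9.85% and 10.1% with the block. For DESeq2 without the block they were 2.51% and 4.53%, and for an unadjusted p under 0.05 in edgeR 7.23% and 9.22%. Among 9 other VEGF ligands and receptors 2 were lower, Vegfb (93.9 CPM in control and 64.0 in LDHi, -0.55, SE 0.13, adjusted p = 0.0417) and the receptor Kdr (18.8 and 7.81 CPM, -1.27, SE 0.31, adjusted p = 0.0444), which is also one of the endothelial markers above. Flt1, the other main VEGF receptor of endothelium and also among those markers, stood on the other side, at 37.7 and 62.5 CPM (0.73, SE 0.19, adjusted p = 0.0601). With the block Flt1 was called higher (0.71, SE 0.14, adjusted p = 0.0071) and 4 genes lower, Pgf, Kdr, Vegfb and Vegfc, and DESeq2 without the block likewise called 1 higher and 4 lower. The receptor Calcrl, through which adrenomedullin acts, was the 1 of 6 tested genes of that family to be called without the block, at 6.45 and 2.78 CPM (-1.21, SE 0.23, adjusted p = 0.0205). With the block Ackr3, a decoy receptor, was lower as well, at 27.8 and 19.1 CPM (-0.56, SE 0.11, adjusted p = 0.0074). Of 12 other carbonic anhydrases and acid-base carriers 2 were lower, Car14 (132 and 51.9 CPM, -1.36, SE 0.23, adjusted p = 0.0133) and Car3 (4.41 and 1.58 CPM, -1.48, SE 0.35, adjusted p = 0.0419), and with the block 5 were, Car13, Slc4a7 and Car11 being the others. The 3 other NDRG genes were not called in either edgeR fit or by DESeq2 (median -0.13), and 0 had an unadjusted p under 0.05. Of 19 other mitophagy genes 0 were called by edgeR without the block (median -0.026), with 2 higher and 5 lower below an unadjusted p of 0.05, while DESeq2 called 1 higher. With the block 2 were higher, the autophagy adaptor Sqstm1, at 211 and 268 CPM (0.35, SE 0.08, adjusted p = 0.0131), and Gabarapl2 (0.38, SE 0.10, adjusted p = 0.0257), and 4 were lower, among them Gabarapl1 (-0.27, SE 0.06, adjusted p = 0.0080) and Gabarap (-0.21, SE 0.06, adjusted p = 0.0236), which like Gabarapl2 encode proteins of the autophagosome membrane. With lactate added to the inhibitor no gene of these lists was called by edgeR without the block (11 higher and 1 lower below an unadjusted p of 0.05, and 2 called by DESeq2), and with the block Pgf, placental growth factor (1.27, SE 0.21, adjusted p = 0.0323), and Car14 (0.97, SE 0.16, adjusted p = 0.0273) were higher than in LDHi. Over all genes 2.6% were higher and 0.801% lower below that unadjusted p. DESeq2 called 0.295% higher, and edgeR with the block 0.57%.

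The genes whose profile over the 12 libraries was most like that of a member were found among 12909 genes by the Pearson correlation of log2 CPM. It is given as a description, since the libraries share treatments and sets. For Ndrg1 these were Ass1 (0.979), Tbx3 (0.965) and Baiap2 (0.951). For Bnip3 they were Ero1l (0.957), Pfkl (0.938) and Mllt10 (0.935), for Egln3 Fam117a (0.959), Slc16a3 (0.958) and Snrpn (0.949), and for Ankrd37 G2e3 (0.98), Uhrf2 (0.977) and Hk2 (0.974). For Adm they were Upf1 (0.983), Ywhah (0.959) and Atg2b (0.954), and for Egln1 Stau1 (0.967), Bmt2 (0.966) and Slc25a51 (0.957). The nearest gene was Tmem169 for Hif1a (0.958), Dgkz for Car9 (0.923), Gmfb for Bnip3l (0.917) and Micu3 for Vegfa (0.891). Among the 45 pairs of the 10 genes, with the set means taken out, the correlation over 12 libraries ran from -0.853 (Bnip3l with Adm) to 0.745 (Hif1a with Egln1), with 0.708 for Adm with Ndrg1, 0.665 for Bnip3 with Ankrd37 and 0.658 for Bnip3 with Egln3.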

How the data were processed

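The authors deposited raw counts of reads per Ensembl gene for each of 12 libraries of TruSeq mRNA (50 bp single reads). Per the labels, reads were trimmed with cutadapt 1.13, aligned to mm10 with STAR, counted with HTSeq 0.6.1p1 and analysed with DESeq2 1.14.1. The STAR version, the strand setting and the annotation release were not given in the sources used here. Of 54232 gene IDs, 99.9% matched GENCODE vM21. The 10 genes and the lists were chosen with earlier results of these data known. Groups follow the labels.

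Counts were fitted over all 12 libraries with edgeR 4.0.16 (R 4.3.3, limma 3.58.1) by the quasi-likelihood test, with TMM scaling and filterByExpr (17721 genes), and a Benjamini-Hochberg adjusted p under 0.05 was called. The spread is that between libraries. Totals were 22174002 to 48271386 counts. CPM are TMM-scaled, log2 CPM has a prior count of 2, and RPKM uses the union of exons. Single values were tested by two-sided exact permutation (smallest p 0.0286 for 4 against 4). Tables and figures used python 3.11.15, numpy 2.4.6, pandas 2.3.3, scipy 1.17.1 and matplotlib 3.10.9. The fit was tested on simulated counts with known fold changes. These held no replicate or set effect, so the test does not cover libraries that deviate together. No 2 libraries of a group were repeats of each other.

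Deviations from group means correlated at 0.329 to 0.634 between libraries with the same replicate number (12 pairs), at -0.22 to 0.197 between numbers of the same set and at -0.544 to 0.171 between sets. The numbers therefore pair the libraries, as read from the data, and a fit with the number as a block was run. DESeq2 1.42.0, RLE factors, library totals, other filters, a term for the set, either set by itself and fits with 1 library left out were also run. The alternatives for the set difference and the list counts for it were chosen after seeing the data. The text names the 10 genes, up to 4 called and 2 other genes of each list by smallest adjusted p, and up to 3 genes of highest correlation (mean log2 CPM of at least 1), though not all of them are printed.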

Additional observations from a re-analysis of the deposited data

Results flagged for a closer look

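Vegfa in LDHi+lactate replicate 1, at 106 CPM, was the lowest of its group, whose other 3 libraries lay close together at 115.9 to 117.9 CPM. The gap is large only beside the spread of those 3, since Vegfa ran from 90.5 to 132 CPM over the control and LDHi libraries. Of 30 groups of 4 libraries looked at, this was the 1 flagged, and chance flags about 1 in 20.

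For 5 genes every library pair of replicates 1 and 2 moved one way and every pair of replicates 3 and 4 the other. For LDHi against control the difference of effects (replicates 3 and 4 minus replicates 1 and 2, log2) was 0.67 for Bnip3, 1.07 for Egln3 and 0.48 for Ankrd37, each with an adjusted p of 0.89 by edgeR's interaction term. For LDHi+lactate against LDHi it was 0.24 for Hif1a and 0.17 for Egln1, with an adjusted p of 0.9999. For LDHi+lactate against control it was 0.32 for Egln1, with an adjusted p of 0.9998. The same order of signs was found in 6.6%, 7.61% and 4.37% of all genes in these 3 comparisons.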

How the results depend on the processing

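For LDHi against control the count of the 10 genes called higher was 1, and it was 2 (Ndrg1 and Adm) with DESeq2 with the replicate block and with the replicate block with no filter, and 0 within replicates 1 and 2 alone and within replicates 3 and 4 alone. The count called lower was 0, and it was 1 (Bnip3l) with DESeq2 with the block and with the block with no filter. With replicates left out these counts ran from 0 to 1 each. For LDHi+lactate against control the count called higher was 0, and it was 1 with DESeq2, with the replicate block and with the block with library totals, 2 (Ndrg1 and Adm) with DESeq2 with the block and with the block with no filter, and 0 to 1 with replicates left out. With the replicate number as a block no other call of edgeR on the 10 genes changed. One gene, Egln3, was called for an effect that differs between the sets with no filter, and 0 otherwise. The count of 5 genes higher in replicates 3 and 4 was 5 under all 15 alternatives run.

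Directions turned only for values that were not called. Within replicates 1 and 2 alone, LDHi against control gave Bnip3 -0.19, Egln3 -0.48 and Ankrd37 -0.17 on the log2 scale, LDHi+lactate against LDHi gave Hif1a -0.040, Bnip3 0.051, Bnip3l -0.012, Egln1 -0.049 and Adm 0.49, and LDHi+lactate against control gave Bnip3 -0.14 and Ankrd37 -0.012. Within replicates 3 and 4 alone, LDHi+lactate against LDHi gave Ankrd37 -0.015, and LDHi+lactate against control gave Vegfa 0.039 and Egln1 0.11. The replicate block with library totals gave Bnip3 0.0010 for LDHi+lactate against LDHi. With single libraries left out, LDHi against control ran from -0.17 to 0.030 for Egln1, -0.050 to 0.42 for Egln3 and -0.13 to 0.44 for Ankrd37. LDHi+lactate against LDHi ran from -0.17 to 0.14 for Bnip3, -0.019 to 0.081 for Bnip3l, -0.087 to 0.17 for Egln1, -0.014 to 0.57 for Egln3, -0.90 to 0.26 for Adm, -0.20 to 0.0088 for Ndrg1 and -0.35 to 0.33 for Ankrd37. LDHi+lactate against control ran from -0.13 to 0.033 for Vegfa, -0.66 to 0.0078 for Car9, -0.15 to 0.099 for Egln1 and -0.18 to 0.47 for Ankrd37. With the block and a replicate number left out, LDHi against control gave Bnip3 -0.023 (without 4), Egln3 -0.18 and -0.10 (without 3 and without 4) and Ankrd37 -0.046 (without 3). LDHi+lactate against LDHi then gave Bnip3 0.017 and 0.038 (without 1 and without 3), Bnip3l -0.0087 and Adm 0.36 (without 3) and Ankrd37 -0.060 (without 2). LDHi+lactate against control gave Vegfa 0.064 and 0.010 (without 1 and without 4), Bnip3 -0.034 (without 4) and Egln1 0.0071 and 0.0094 (without 1 and without 2). The cause was not tested. Depth limits Car9 (5 to 38 counts per library) and Adm (11 to 136).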
